A study of Mus musculus with 4 samples.

Results

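The genes described here are 7 receptors that set how a lymphocyte answers its antigen receptor, and 1 ligand. They are *Ctla4*, *Pdcd1*, *Lag3*, *Havcr2* and *Tigit*, which encode inhibitory or checkpoint receptors, *Icos* and *Cd28*, which encode costimulatory receptors, and *Cd274*, which encodes PD-L1, the ligand of the *Pdcd1* product. They were taken as a given list and matched by gene ID, and all 8 were among the 31950 gene IDs that both gene expression files hold. The receptors were read in T cells and innate lymphoid cells (ILCs), and *Cd274* also in myeloid and stromal cells.

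A T cell needs a costimulatory signal beside the signal of its antigen receptor. CD28 gives it when bound by CD80 or CD86, CTLA-4 competes for the same ligands, and ICOS, a relative of CD28, binds ICOS ligand. PD-1, LAG-3, TIM-3 (the *Havcr2* product) and TIGIT are induced on activated T cells and dampen them when their ligands are bound, and in the gut CTLA-4, ICOS and TIGIT are known from regulatory T cells (Treg), while ICOS also marks group 2 ILCs.

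The study compared WT mice with A20ZF7 mice, a whole-body knock-in that removes the binding of linear ubiquitin by the seventh zinc finger of A20, a protein that restrains NF-κB signalling. Lamina propria cells of the small intestine came from 2 mice of each genotype at 12 weeks of age, were depleted of other cells to leave T cells and ILCs, and were pooled, with 60000 cells collected per genotype. Each genotype therefore gave 1 gene expression library, from 5′ droplet capture with unique molecular identifiers (UMIs), so a difference between genotypes could not be tested against the spread between animals and no p-value is given. Antibody tags against 138 surface proteins and a hashtag antibody for each mouse were read from the same droplets.

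Several features of the libraries bear on every value. After filtering, the WT library held 14818 cells and the A20ZF7 library 43162, of which 5441 and 22942 were lymphocytes, with a median of 877 and 712 UMIs. Both antibody deposits held the same values, those of the WT barcodes, so protein was read only in WT cells and only the WT mice could be told apart. The 2 expression files had different gene lists (33696 and 32285 gene IDs), which cannot be told apart from genotype. Barcodes found among the cells of both libraries numbered 922, of which 188 were lymphocytes in both, and leaving them out changed none of the counts of raised genes given for all lymphocytes, Treg-like, Th17-like or CD8 T-like cells.

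Classes of lymphocytes were rebuilt by clustering without the 8 genes and named "X-like" from marker genes. *Foxp3*, the Treg factor, was at 432 UMIs per 1000000 UMIs of the class (CPM) in WT and 349 CPM in A20ZF7 Treg-like cells. *Il17a* was at 4109 and 4725 CPM in Th17-like cells, whose leading genes also included *Gcg*, a hormone gene of the epithelium. These classes were small in WT, at 111 Treg-like and 67 Th17-like cells against 2130 and 4522 in A20ZF7, so a gene without a UMI in WT Th17-like cells could still lie at up to 51.2 CPM. The ILC2-like class came from different clusters in the 2 libraries, with 75.5% of the WT cells in cluster 9 and 98.1% of the A20ZF7 cells in cluster 4, and so did the ILC3-like class, with 84.6% of the WT cells in cluster 7 and 85.0% of the A20ZF7 cells in cluster 2. The ILC1 or NK-like class was led by the mast cell protease genes *Mcpt1* and *Mcpt2* beside *Xcl1* and *Klrb1c*. A further 125 WT and 1172 A20ZF7 lymphocytes in unnamed clusters count only among all lymphocytes.

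Across all lymphocytes, every one of the 8 genes had a higher level in A20ZF7 than in WT, and the 5 inhibitory receptors had the largest ratios. *Ctla4* went from 372 CPM in WT to 944 CPM in A20ZF7, a ratio of 2.54 (95% interval 2.43 to 2.66, for counting error only, as for all intervals here). *Havcr2* was at 4.59 and 39.8 CPM, a ratio of 8.67 (5.87 to 13.4). *Lag3* was at 23.85 and 100.3 CPM, a ratio of 4.21 (3.53 to 5.04). *Pdcd1* and *Tigit* had ratios of 2.47 and 2.28, while *Cd274*, *Cd28* and *Icos* had 1.72, 1.37 and 1.32. Taking a gene as raised where its level was at least 2-fold higher and at least 20 UMIs stood behind it, 5 of the 8 genes were raised and 0 were lowered, against 6.51% raised and 5.26% lowered among all genes with that many UMIs. The median ratio was 2.37 over the 8 genes and 1.001 over all genes.

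**Figure D1:**
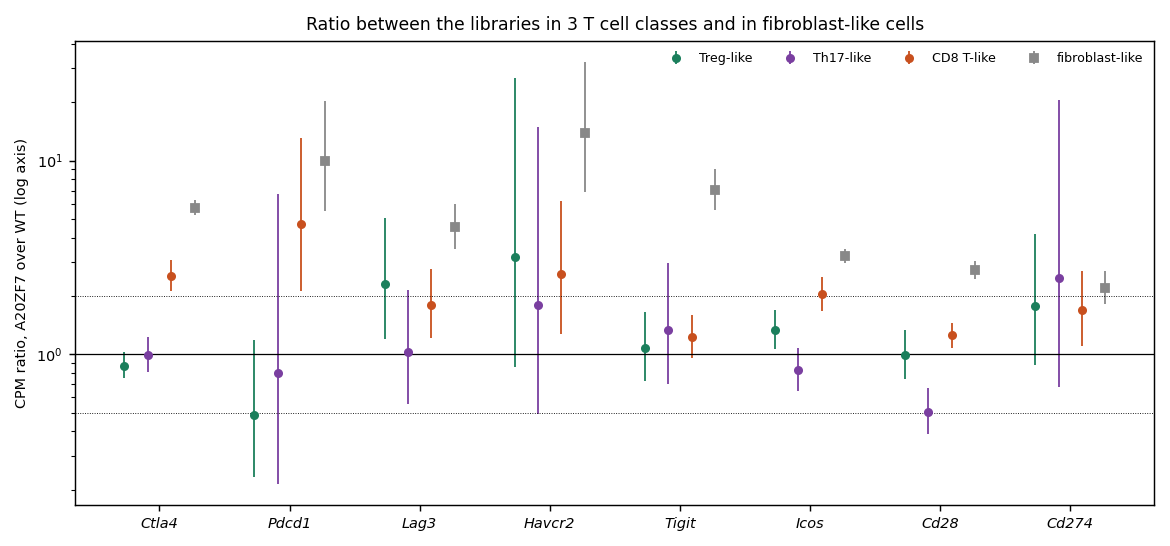
Ratio of the summed level (CPM) in A20ZF7 over WT for each of the 8 genes, on a log axis, with exact 95% counting intervals. Treg-like, Th17-like, CD8 T-like and fibroblast-like cells are shown. The ratios for Th17-like cells run from 0.504 for *Cd28* to 2.48 for *Cd274*, and those for fibroblast-like cells are at least 2.21.

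The same genes were also higher in stromal cells, which should lack the 7 receptors. Endothelium carries PD-L1, so *Cd274* in endothelial-like cells need not be background. In fibroblast-like cells, *Ctla4* was at 70.6 CPM in WT and 404 CPM in A20ZF7, a ratio of 5.73, and all 8 genes were raised, against 8.08% of all genes, with a median ratio of 5.13. All 8 were likewise raised in endothelial-like cells, against 8.31% of genes, and in smooth muscle-like cells, against 7.56%. In barcodes of 10 to 100 UMIs, which hold mostly free RNA, *Ctla4* was at 231 and 893 CPM and *Icos* at 213 and 515 CPM. These values moved with genotype in the same direction as the lymphocyte values, so the fibroblast-like level of the same library is given for each of the 8 genes. Markers of T cells moved the same way, with *Cd3e* at 81.5 CPM in WT and 261 CPM in A20ZF7 fibroblast-like cells and *Il17a* at 55.1 and 726 CPM. With the whole fibroblast-like level taken off, an alternative added after the data were seen, 2 of the 8 genes stayed past 2-fold across all lymphocytes: *Lag3* at 3.997 and *Havcr2* at 6.90, with *Ctla4* at 1.79, *Icos* at 0.937 and *Cd28* at 1.02. The WT fibroblast-like level was uneven. The WT mice had 115 and 130.5 CPM of *Ctla4* and 128 and 179 CPM of *Icos* there. The class level of 70.6 CPM for *Ctla4* also includes barcodes without a hashtag. How far the values with this level taken off depend on the choice of WT barcodes was not tested.

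The sum over lymphocytes also mixes classes whose sizes differed between the libraries. The Th17-like class contributed 4.51% of all lymphocyte *Ctla4* UMIs in WT against 26.3% in A20ZF7, and the ILC2-like class 26.1% against 7.96%. For *Icos*, the share of ILC2-like cells was 42.5% in WT and 10.99% in A20ZF7. For *Cd28*, the share of Th1 or NKT-like cells was 34.8% and 2.18%. The genes are therefore described class by class, from the inhibitory receptors to the costimulatory receptors and the ligand.

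*Ctla4* (chr1:60887000-60915832, plus strand, GRCm38) encodes the inhibitory receptor for CD80 and CD86, and lies on chromosome 1 between *Cd28* (chr1:60716800-60773359) and *Icos* (chr1:60977927-61000320). Its level was highest in Th17-like and Treg-like cells in both libraries. In Th17-like cells it was at 1620 CPM in WT (interval 1311 to 1980) and 1605 CPM in A20ZF7 (1561 to 1650), a ratio of 0.991 (0.809 to 1.23). In Treg-like cells it was at 1537 and 1345 CPM, a ratio of 0.875 (0.751 to 1.02). Neither class showed a difference beyond counting error, but the Th17-like ratio ran from 0.775 to 1.83 under the alternatives, reaching 1.83 with Th17 cells gated on marker UMIs, against 0.641 to 0.906 for the Treg-like ratio. The WT mice had 1359 and 1755 CPM in Th17-like cells (23 and 18 cells) and 1642 and 1734 CPM in Treg-like cells (51 and 33 cells).

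In the other lymphocyte classes *Ctla4* was lower in WT and closer to these classes in A20ZF7. CD8 T-like cells had 255 CPM in WT and 648 CPM in A20ZF7, a ratio of 2.54 (2.12 to 3.08), and the WT mice had 269 and 237 CPM. ILC2-like cells had 295.5 and 631 CPM, a ratio of 2.14 (1.94 to 2.36). ILC3-like cells had 257 and 612 CPM, a ratio of 2.38 (2.14 to 2.67). Within single clusters the direction was the same: clusters 4 and 9, which hold most of the ILC2-like cells, had ratios of 3.07 and 2.05, and clusters 7 and 2, which hold most of the ILC3-like cells, 2.68 and 1.78. The A20ZF7 levels of the CD8 T-like, ILC2-like, ILC3-like and ILC1 or NK-like classes (598 to 648 CPM) overlapped in their intervals and stood 1.60 times over the fibroblast-like level in CD8 T-like cells, against 3.61 times in WT. With that level taken off, the ratio was 1.32 in CD8 T-like, 1.01 in ILC2-like and 1.12 in ILC3-like cells, all short of 2-fold. In ILC1 or NK-like cells (32 WT and 49 A20ZF7 UMIs) the ratio was 3.84 (2.41 to 6.19). There it stayed past 2-fold with that level taken off, at 2.27.

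The share of cells with a UMI was read next. After every cell was thinned to 500 UMIs, which left out 1268 shallower A20ZF7 Th17-like cells, 434 Treg-like cells and 1028 CD8 T-like cells and none in WT, the share of Th17-like cells with a *Ctla4* UMI was 50.7% in WT against 51.7% in A20ZF7. The shares were 51.4% and 46.3% of Treg-like cells. They were 10.97% and 25.8% of CD8 T-like cells, beside 2.51% and 15.3% of fibroblast-like cells. Without thinning, the shares were 67.2% and 61.4% in Th17-like, 70.3% and 61.4% in Treg-like, 17.6% and 32.4% in CD8 T-like and 6.46% and 29.7% in fibroblast-like cells. The share was higher in A20ZF7 in both CD8 T-like and fibroblast-like cells, and not in Th17-like or Treg-like cells beyond their intervals.

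**Figure D2:**
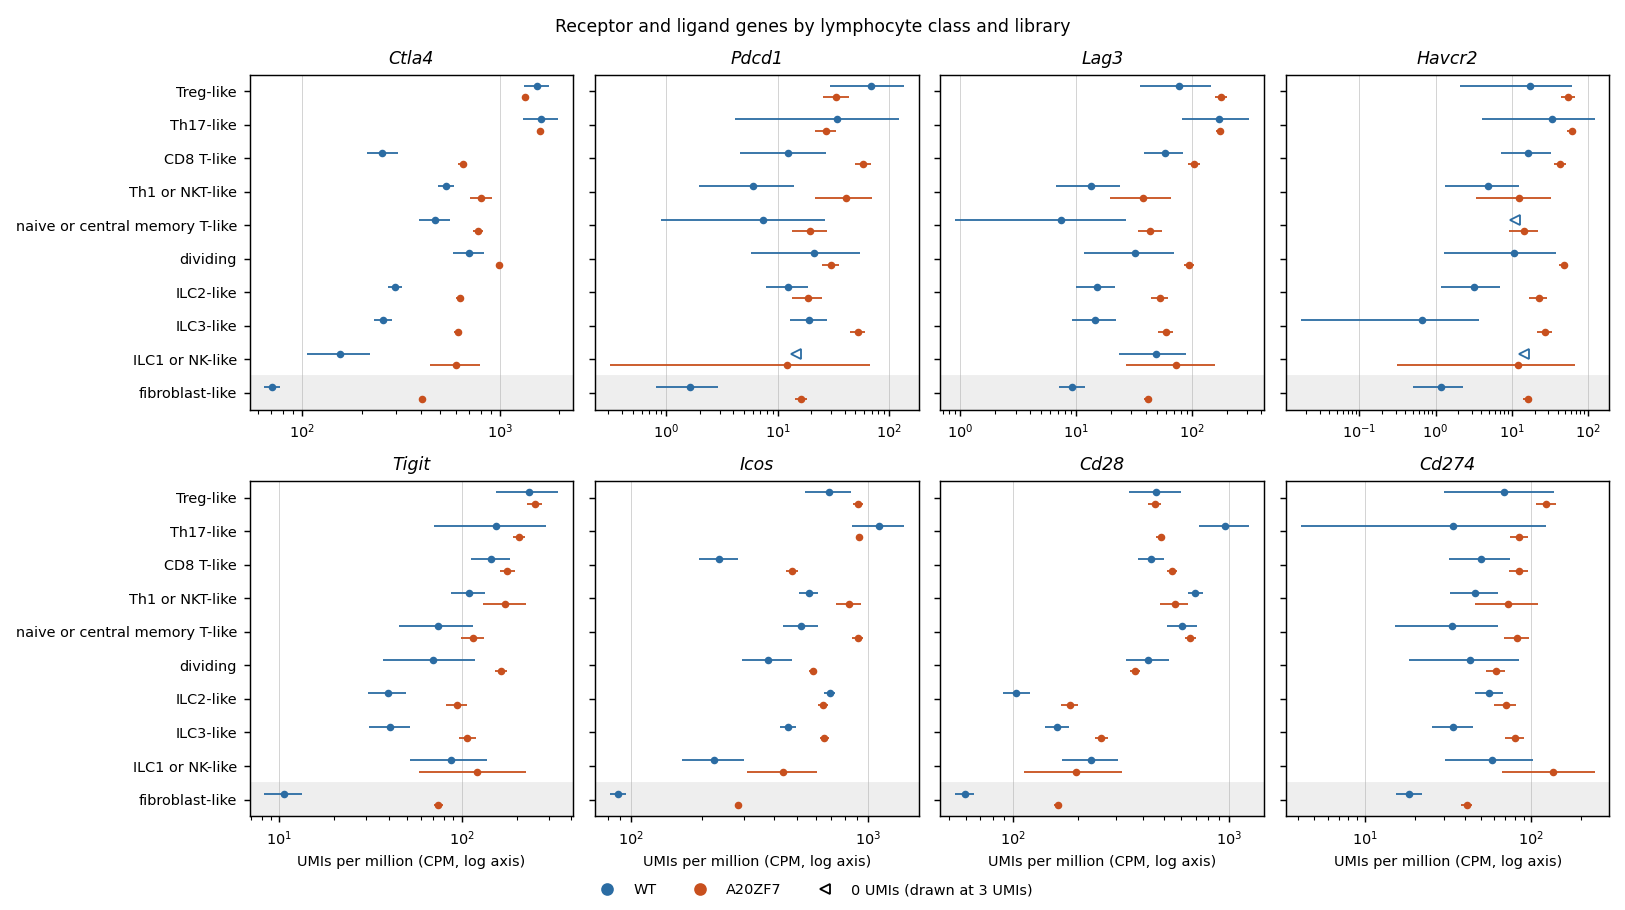
Level of each of the 8 genes (CPM, log axis) in each lymphocyte class and in fibroblast-like cells, WT and A20ZF7, with exact 95% Poisson intervals; open triangles mark a class with 0 UMIs, drawn at 3 UMIs. *Ctla4* is highest in Th17-like and Treg-like cells in both libraries, and fibroblast-like cells have 70.6 CPM in WT and 404 CPM in A20ZF7.

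*Ctla4* and *Tigit* were both raised across all lymphocytes, and the 250 bases before the RefSeq start of each gene (GRCm38.p6) are shown with the sequence motifs that were searched. On either strand these were the NFAT core GGAAA (found in 55.6% of 32851 promoters of the same length), the AP-1 motif TGANTCA (6.75%) and the kappa-B consensus (3.90%), all sites of factors that act downstream of the antigen receptor or of A20. The *Ctla4* window is chr1:60908775-60909024 on the plus strand, and the *Tigit* window is chr16:43664185-43664434 on the minus strand. The *Ctla4* window lies inside the gene span given above, which is from GENCODE and starts before the RefSeq start. Capitals mark matches to the NFAT core, which lie on the reverse strand and so read TTTCC.
Ctla4: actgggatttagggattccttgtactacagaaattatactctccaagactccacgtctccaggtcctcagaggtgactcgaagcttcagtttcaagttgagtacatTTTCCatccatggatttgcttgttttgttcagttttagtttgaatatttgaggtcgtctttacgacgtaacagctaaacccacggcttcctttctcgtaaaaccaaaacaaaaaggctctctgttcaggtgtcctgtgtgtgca
Tigit: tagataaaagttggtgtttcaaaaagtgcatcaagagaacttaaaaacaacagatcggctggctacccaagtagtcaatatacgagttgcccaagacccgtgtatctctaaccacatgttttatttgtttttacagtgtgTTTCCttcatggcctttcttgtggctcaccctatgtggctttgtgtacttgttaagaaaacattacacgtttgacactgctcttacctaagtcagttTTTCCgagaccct
The *Ctla4* window held 1 match and the *Tigit* window 2, and neither held the AP-1 motif or the kappa-B consensus. *Pdcd1* held 2 NFAT cores and *Cd274* held 1, whereas *Havcr2* held none but 1 AP-1 motif. *Lag3*, *Icos* and *Cd28* were not analysed here. A match to letters this common is a description of the sequence only.

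*Tigit* (chr16:43648867-43664146, minus strand), an inhibitory receptor for the nectin family member CD155, was highest in Treg-like cells. It was at 233 CPM in WT and 252 CPM in A20ZF7 in Treg-like cells, a ratio of 1.08, and at 153.5 and 206 CPM in Th17-like cells. CD8 T-like cells had 145 and 178 CPM, a ratio of 1.23. None of these 3 ratios reached 2-fold. Under the alternatives they ran from 0.796 to 2.12, from 0.776 to 2.33 and from 0.771 to 1.87. The lowest CD8 T-like value was that with the fibroblast-like level taken off. ILC2-like cells had 39.3 and 94.0 CPM, a ratio of 2.39, and ILC3-like cells 40.6 and 107 CPM, a ratio of 2.64. The fibroblast-like level was 10.6 and 74.6 CPM, and with it taken off the ILC2-like and ILC3-like ratios were 0.677 and 1.09. In A20ZF7, Treg-like cells stood 3.38 times over it, against 22.1 times in WT.

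*Lag3* (chr6:124904361-124911705, minus strand), which binds MHC class II, had its highest lymphocyte levels in Treg-like and Th17-like cells. Treg-like cells had 77.7 CPM in WT, from 9 UMIs, and 179 CPM in A20ZF7, a ratio of 2.30 (1.198 to 5.09). Th17-like cells had 170.5 CPM from 10 UMIs and 175 CPM, a ratio of 1.03, which was 2.19 with a limit of 5000 genes and 3.37 with marker gates. CD8 T-like cells had 58.1 and 105 CPM, a ratio of 1.80 (1.22 to 2.76). *Lag3* was thus raised past 2-fold in Treg-like cells. It was also raised in ILC3-like (4.056), ILC2-like (3.502) and dividing cells (2.969, from 6 WT UMIs). The same held in naive or central memory T-like (5.882, from 2 WT UMIs) and Th1 or NKT-like cells (2.845, from 11). With the fibroblast-like level taken off, it stayed past 2-fold in ILC3-like (3.236), dividing (2.331) and Treg-like cells (2.003), but not in ILC2-like cells (1.861). Nor was it called raised then in naive or central memory T-like or in Th1 or NKT-like cells. Their A20ZF7 levels of 43.7 and 37.9 CPM stood 1.04 and 0.904 times over the fibroblast-like level. When Treg were taken as lymphocytes with a *Foxp3* UMI in place of a cluster, the *Lag3* ratio was 0.940. In A20ZF7 its level stood 4.17 times over that of fibroblast-like cells in Th17-like cells, and the fibroblast-like levels themselves were 9.25 and 41.9 CPM.

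*Pdcd1* (chr1:94038305-94052553, minus strand), the gene of PD-1, was low in every class. In CD8 T-like cells it had 6 UMIs in WT, or 12.45 CPM, and 153 UMIs in A20ZF7, or 58.7 CPM, a ratio of 4.71 (2.12 to 13.1), beside 1.61 and 16.1 CPM in fibroblast-like cells. The WT mice had 8.39 and 20.2 CPM, from 2 and 4 UMIs, and the ratio was 2.91 without WT replicate 1 and 6.995 without WT replicate 2. It was the only one of the 8 genes that stayed past 2-fold in CD8 T-like cells with the fibroblast-like level taken off, at 3.93. A20ZF7 CD8 T-like cells had the highest *Pdcd1* level of the A20ZF7 classes, with ILC3-like cells next at 52.5 CPM and overlapping in their interval. In Treg-like cells it went the other way, with 8 WT UMIs (69.1 CPM) against 33.8 CPM, a ratio of 0.489 (0.233 to 1.18), and the interval includes 1. That ratio was 1.23 without WT replicate 1 and 1.77 with cells thinned to 500 UMIs.

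*Havcr2* (chr11:46454935-46481255, plus strand), the gene of TIM-3, had 26 UMIs in all WT lymphocytes and 811 in A20ZF7. In CD8 T-like cells it was at 16.6 CPM from 8 UMIs and 43.4 CPM, a ratio of 2.61 (1.28 to 6.20), and 1.76 with the fibroblast-like level (1.17 and 16.2 CPM) taken off. The WT mice had 4.195 CPM (1 UMI) and 30.3 CPM (6 UMIs), so the ratio was 1.43 without WT replicate 1 and 10.3 without WT replicate 2. In ILC3-like cells 1 UMI stood against 86, a ratio of 40.6 with an interval of 7.096 to 1622. In Treg-like cells 2 UMIs stood against 98. WT naive or central memory T-like cells had 0 UMIs, with an interval up to 13.7 CPM, against 14.6 CPM (9.24 to 21.9) in A20ZF7. The intervals overlap, and the gene was called neither raised nor lowered there. These ratios rest on few WT UMIs, and the low-UMI barcodes alone had *Havcr2* at 6.86 and 52.1 CPM, a ratio of 7.60. In A20ZF7 the low-UMI interval (40.05 to 66.69 CPM) overlapped those of CD8 T-like, dividing, ILC1 or NK-like, Treg-like and Th17-like cells. Treg-like and Th17-like cells were at 55.2 and 61.3 CPM, so neither stood above the low-UMI level beyond counting error. The low-UMI interval lay above those of ILC3-like (21.62 to 33.38), ILC2-like, naive or central memory T-like and Th1 or NKT-like cells.

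*Icos* was the costimulatory receptor with a broad lymphocyte pattern. In WT it was highest in Th17-like cells, at 1108 CPM, followed by ILC2-like cells at 687 CPM and Treg-like cells at 682 CPM, which overlapped. In A20ZF7, Th17-like, Treg-like and naive or central memory T-like cells had 918, 909 and 902 CPM and overlapped in their intervals. ILC2-like cells had 687 CPM in WT and 644 CPM in A20ZF7, a ratio of 0.937 (0.870 to 1.01), and the WT mice had 680.5 and 641 CPM. Thinned to 500 UMIs, 26.7% of WT and 26.6% of A20ZF7 ILC2-like cells had an *Icos* UMI, beside 3.33% and 11.5% of fibroblast-like cells. The clusters of the class differed, since in cluster 4 *Icos* was at 372 CPM in WT and 643 CPM in A20ZF7 and in cluster 9 at 778 and 677 CPM. With the fibroblast-like level of 88.4 and 284 CPM taken off, the ratio of the class was 0.602. CD8 T-like cells had the lowest levels of *Icos* among the T cell classes, 234 CPM in WT and 478 CPM in A20ZF7, a ratio of 2.04 (1.68 to 2.49), which was 1.33 with the fibroblast-like level taken off.

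*Cd28* had the lowest ratio of the 8 genes in Th17-like cells. It was at 955 CPM in WT (56 UMIs) and 481 CPM in A20ZF7 (1516 UMIs), a ratio of 0.504 (0.386 to 0.670), just short of the 2-fold limit. The WT mice had 971 and 877 CPM. Thinned to 500 UMIs, 41.8% of WT and 20.9% of A20ZF7 Th17-like cells had a *Cd28* UMI, beside 2.53% and 6.79% of fibroblast-like cells. The ratio depended on how the cells were chosen: it was 0.852 with the limit on genes per cell raised from 2500 to 5000 (147 WT and 6228 A20ZF7 cells) and 0.864 where Th17 cells were gated on marker UMIs (398 and 6815 cells), and every alternative lay below 1, from 0.357 to 0.864. In the other T cell classes *Cd28* lay closer together, at 458 and 453 CPM in Treg-like, 434 and 542 CPM in CD8 T-like and 606 and 661 CPM in naive or central memory T-like cells. In Th1 or NKT-like cells *Cd28* was at 698 and 559 CPM, a ratio of 0.801 (0.673 to 0.950). It was lowest in ILC2-like cells in both libraries, at 103 and 182 CPM, a ratio of 1.76 (1.49 to 2.10), but the fibroblast-like level was 59.3 and 161 CPM, and with it taken off the ILC2-like ratio was 0.475.

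The count of raised genes ran from 1 in Th17-like and in Th1 or NKT-like cells to 6 in ILC3-like cells. In Th17-like cells 1 gene was raised and 0 were lowered, against 7.16% raised and 10.8% lowered among all genes. The raised gene was *Cd274*, from 2 WT UMIs, with a ratio interval that includes 1 (0.679 to 20.6). The median ratio was 1.01 against 0.759 over all genes. That median reads a WT count of 0 as 3 UMIs, in a class with 58645 UMIs in WT and 3149971 in A20ZF7. It therefore cannot show that genes were generally lower in A20ZF7 Th17-like cells. In Treg-like cells 2 were raised (*Lag3* and *Havcr2*) and 1 was lowered (*Pdcd1*), against 10.6% and 5.93%. In CD8 T-like cells 4 were raised (*Ctla4*, *Pdcd1*, *Havcr2* and *Icos*), against 8.01%, and 0 were lowered, against 3.46%. The count was 4 in ILC2-like cells (against 5.97%), 6 in ILC3-like cells (against 6.01%), 3 in naive or central memory T-like cells (against 10.1%), 3 in dividing cells (against 9.59%), 1 of 6 with enough UMIs in Th1 or NKT-like cells (against 3.37%) and 2 of 5 in ILC1 or NK-like cells (against 4.71%). The 3 in naive or central memory T-like cells were *Pdcd1* and *Lag3*, from 2 WT UMIs each, and *Cd274*, from 9. No difference between the counts of raised genes was tested. With the fibroblast-like level taken off, the count was 2 in Treg-like, 1 in Th17-like, 1 in CD8 T-like and 1 in ILC2-like cells. It was 4 in ILC3-like cells (*Pdcd1*, *Lag3*, *Havcr2* and *Cd274*) and 1 in naive or central memory T-like cells. In dividing cells it was 2, in Th1 or NKT-like cells 0 and in ILC1 or NK-like cells 2. Where both libraries lay above the fibroblast-like level, the same step put *Pdcd1* (0.343) and *Cd28* (0.357) past 2-fold down in Th17-like cells. It also put *Pdcd1* (0.261) there in Treg-like cells and *Pdcd1* (0.2232) and *Cd28* (0.4753) in ILC2-like cells. In ILC1 or NK-like cells *Cd28* was at 0.2003, from 47 WT and 16 A20ZF7 UMIs. The *Pdcd1* values rest on 2 WT UMIs in Th17-like, 8 in Treg-like and 23 in ILC2-like cells.

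Receptors were also found together in single cells. After thinning to 500 UMIs, 52.2% of WT and 39.4% of A20ZF7 Th17-like cells had UMIs of at least 2 of the receptor genes. The shares were 30.6% and 37.3% of Treg-like cells, and 10.2% and 22.9% of CD8 T-like cells. In fibroblast-like cells, which should have none, they were 0.949% and 6.62%. The intervals of the WT and A20ZF7 shares overlapped in Th17-like cells (39.67% to 64.6% and 37.68% to 41.07%). They also overlapped in Treg-like cells (22.2% to 40.1% and 35.0% to 39.6%). They did not in CD8 T-like cells (7.83% to 13.1% and 21.3% to 24.6%), nor in fibroblast-like cells (0.707% to 1.245% and 6.18% to 7.09%).

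*Cd274* (chr19:29367455-29388095, plus strand) encodes PD-L1, which myeloid cells, endothelium and activated lymphocytes carry and which interferons induce. In macrophage or monocyte-like cells it was at 139 CPM in WT and 190 CPM in A20ZF7, a ratio of 1.37 (1.02 to 1.87). The WT mice had 171 and 82.5 CPM, which lay further apart than the values of the libraries. These rest on 29 and 10 UMIs, and their intervals overlap (114.3 to 245.0 and 39.58 to 151.8). Dividing the myeloid cells further, the highest levels were in a group led by *Ccl22*, *Ccr7* and *Fscn1*, genes of migratory dendritic cells, with 11 UMIs in 13 WT cells (369 CPM) and 61 UMIs in 116 A20ZF7 cells (323.5 CPM). A group led by *S100a9*, *Lyz2* and *C1qc* had 216 and 266 CPM. Both groups lay above the whole macrophage or monocyte-like class in each library, and neither ratio reached 2-fold. Other barcodes of the myeloid classes formed groups led by fibroblast genes (56 WT and 393 A20ZF7 cells) or by T cell genes such as *Cd3g* and *Lck* (68 and 340 cells), where *Cd274* was at 79.03 and 84.9 CPM and at 62.7 and 104 CPM; their part in the class values was not tested.

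In stromal and epithelial cells, *Cd274* was lower than in macrophage or monocyte-like cells in both libraries. Fibroblast-like cells had 18.5 CPM in WT and 40.9 CPM in A20ZF7, and smooth muscle-like cells had 16.3 and 39.9 CPM. Endothelial-like cells had 39.6 and 98.0 CPM, a ratio of 2.48. Epithelial-like cells had 9 UMIs in WT (4.33 CPM) and 7 UMIs in A20ZF7 (37.5 CPM). All of these A20ZF7 values except that of endothelial-like cells lay below the low-UMI barcodes of the library, which had 28.0 CPM in WT and 76.9 CPM in A20ZF7. Among lymphocytes, Treg-like cells had 69.1 and 123 CPM and Th17-like cells 34.1 and 84.5 CPM. The A20ZF7 Treg-like interval (107.0 to 140.2) lay above that of the low-UMI barcodes (62.1 to 94.26), but the Th17-like interval (74.6 to 95.23) overlapped it. A20ZF7 ILC2-like, Th1 or NKT-like and dividing cells (70.1, 72.7 and 61.2 CPM) lay below the low-UMI level. In the macrophage or monocyte-like class 3 of the 8 genes were raised, against 7.93% of all genes. They were *Ctla4*, *Pdcd1* (1 WT UMI) and *Tigit* (6 WT UMIs), and *Cd274* was not among them. In A20ZF7 these 3 genes stood 1.095, 1.16 and 0.994 times over the fibroblast-like level.

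**Figure D3:**
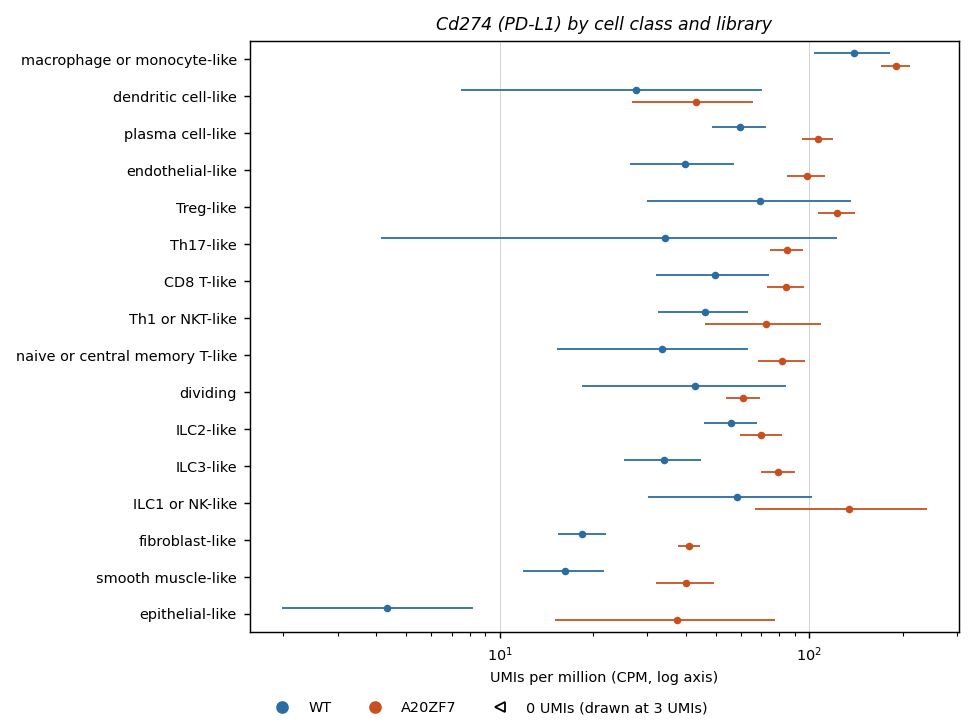
Level of *Cd274* (CPM, log axis) in myeloid, stromal, epithelial, plasma and lymphocyte classes, WT and A20ZF7, with exact 95% Poisson intervals. Macrophage or monocyte-like cells have 139 and 190 CPM, and fibroblast-like cells 18.5 and 40.9 CPM.

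2 of the receptor genes also stood out in myeloid cells. *Lag3* in the dendritic cell-like class, which is led by the plasmacytoid marker *Siglech*, was at 137.5 CPM in WT (20 UMIs) and 247 CPM in A20ZF7 (120 UMIs), a ratio of 1.79, above its Treg-like level in both libraries and above every lymphocyte class in A20ZF7. *Havcr2*, which dendritic cells are known to carry, had 3 WT and 14 A20ZF7 UMIs in a group led by *Xcr1* and *Clec9a*, at 301 and 154.5 CPM. The WT group held 3 cells.

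Protein was read in WT cells only, with 8 antibodies for 7 of the 8 proteins and none for CD28. The tags of the antibodies that the protein values turn on, 15 bases each, identify each count in the sequencing reads, and ICOS is read by 2 clones with unlike tags.
CTLA-4 (CD152): agtgtttgtcctggt
ICOS (CD278), antibody C0171: cgcgcacccattaaa
ICOS (CD278), antibody C0847: actgccatatcccta
PD-L1: tcgattccaccaact
Levels are UMIs per 10000 antibody UMIs, summed over a class. For CD152 the lymphocyte classes lay between 153 in Treg-like and 162 in Th17-like cells, while fibroblast-like cells had 158, so the class order of *Ctla4* RNA did not appear in this surface count. CD279 (PD-1) reached 113 in Treg-like cells against 106.5 in fibroblast-like cells, LAG3 142 against 140.0, and TIGIT 354.0 against 354.3. CD366 (TIM-3) reached 26.25 in Th17-like cells against 23.8.

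ICOS and PD-L1 had the largest ratios to fibroblast-like cells. With antibody C0171, ICOS was at 236 in ILC2-like, 234 in dividing, 228 in Treg-like and 224 in Th17-like cells, against 207 in fibroblast-like cells, and both WT mice had 233 in ILC2-like cells. ILC2-like, Treg-like and Th17-like cells also had the highest *Icos* RNA levels in WT, whereas dividing cells had 378 CPM. The highest ratio to fibroblast-like cells was 1.14, against at most 1.03 in lymphocytes for the 3 isotype controls. For lineage proteins it was 3.25 for CD4 in Th17-like cells, but 1.40 for CD8a in CD8 T-like cells and 1.354 for CD3 in Th17-like cells. CD8a and CD3 were thus little above fibroblast-like cells, so a flat count in this panel does not show that a protein was absent. With antibody C0847 the highest class reached 23.7 against 22.6. PD-L1 was at 24.9 in plasma cell-like cells (25.4 and 26.6 in the WT mice), 16.95 in endothelial-like cells and 16.9 in macrophage or monocyte-like cells, against 10.3 in fibroblast-like cells, and at most 13.7 in a lymphocyte class. Plasma cell-like cells had 59.7 CPM of *Cd274* RNA in WT, which was below the level in macrophage or monocyte-like cells.

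**Figure D4:**
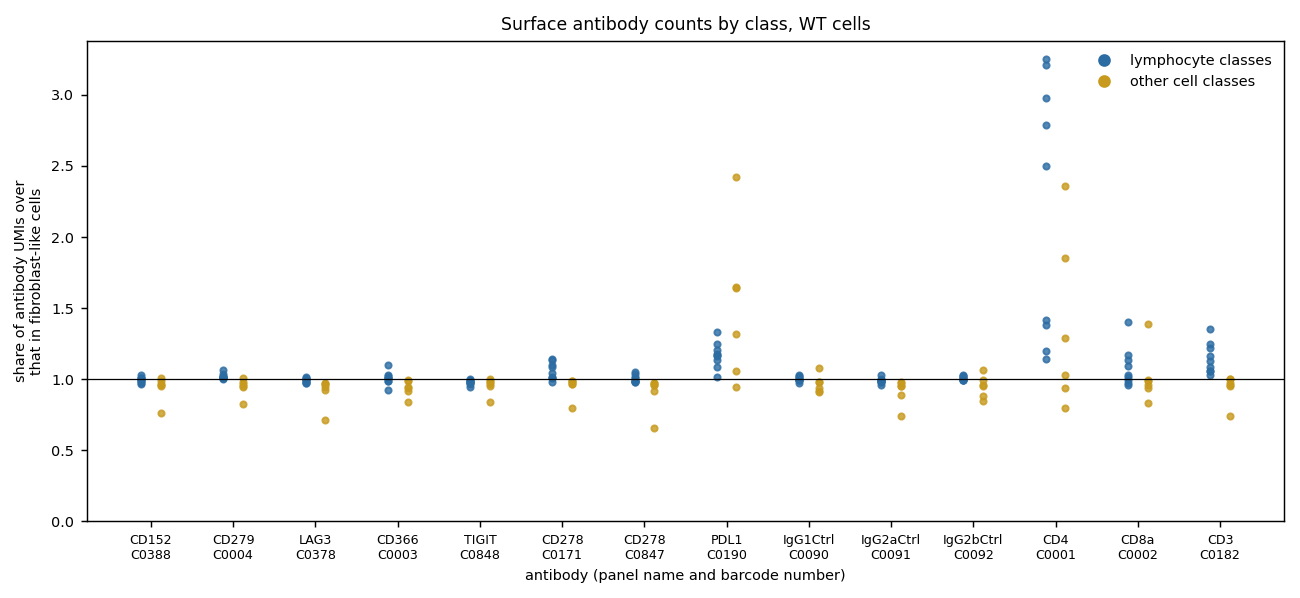
Antibody counts (UMIs per 10000 antibody UMIs) in WT cell classes for the antibodies to 7 of the 8 proteins, the isotype controls and CD4, CD8a and CD3, as a ratio to fibroblast-like cells. PD-L1 reaches 2.42 in plasma cell-like cells and ICOS (C0171) 1.14 in ILC2-like cells, while CD152 does not exceed 1.03.

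Of the wider pathway, the ligands were measured in the same lymphocytes. Beside the counts of the lists stand the shares of all genes, 6.51% raised and 5.26% lowered across all lymphocytes. Of 12 ligand genes, 9 had enough UMIs, and 2 were raised and 1 lowered: *Cd80* at a ratio of 2.80, *Cd86* at 2.48 and *Icosl*, the ICOS ligand, at 0.484. *Lgals9*, a ligand of TIM-3, was at 0.687. The median ratio of the ligands was 1.03.

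Of 11 other inhibitory receptors, 1 was raised, *Btla* at 2.09, followed by *Cd5* at 1.83, and the lowest ratios were *Cd160* at 0.584 and *Cd200r1* at 0.645. Of 9 other costimulatory receptors, 2 were raised, both of the TNF receptor family: *Tnfrsf4* (OX40) at 50.9 CPM in WT against 169.5 CPM (ratio 3.33), and *Tnfrsf9* (4-1BB) at 64.1 against 197 CPM (ratio 3.08). *Cd226*, the costimulatory counterpart of TIGIT, was at 0.640 and *Cd40lg* at 0.842. In CD8 T-like cells *Tnfrsf4* and *Tnfrsf9* were at 12.0 and 3.98. In fibroblast-like cells *Tnfrsf4* was at 10.9 and 72.1 CPM and *Tnfrsf9* at 14.5 and 85.7 CPM.

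Of 11 signalling proteins that act below these receptors, 1 was raised across all lymphocytes, *Sh2d1a* (SAP) at 2.02, with *Themis* at 1.48, *Ptpn6* (SHP-1, recruited by inhibitory receptors) at 0.755 and *Pik3r1*, a subunit of the kinase bound by CD28 and ICOS, at 0.588. Of 16 transcription factors of activated or exhausted T cells, 3 were raised, *Eomes* at 4.15, *Batf* at 2.34 and *Tox2* at 2.12, while *Nr4a1* was at 0.639 and *Tcf7* at 0.743. In CD8 T-like cells 6 of the 16 were raised, against 8.01% of all genes, among them *Tox2* at 7.86, *Maf* at 4.52, *Tox* at 2.50 and *Eomes* at 2.43. In Th17-like cells 3 were raised, against 7.16%, *Ikzf2* at 2.45, *Tox* at 2.40 and *Tox2* at 2.31, and in Treg-like cells 0 of 16, against 10.6%. In fibroblast-like cells 10 of the 16 were raised too, against 8.08% of all genes, as were 6 of the 9 costimulatory receptors and 7 of the 11 signalling genes. There 4 of the 11 other inhibitory receptors and 3 of the 10 ligands with enough UMIs were raised as well.

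Each of the 8 genes was also set beside the 2939 genes that reached 100 CPM in a lymphocyte class, over the 9 classes of both libraries. The points share libraries and differ in depth, so the correlations describe these 18 points only. *Cd28* was most like *Trac*, the T cell receptor alpha constant gene (Pearson's r = 0.946), with *Lat* and *Cd3d* among its nearest 5. *Ctla4* was most like *Nav2* (0.942), and *Icos* like *Cpm* (0.900). *Havcr2* was most like another of the 8 genes, *Lag3* (0.887), and its nearest 5 also held *Batf*. *Tigit* was most like *Arid5b* (0.915), *Cd274* like *Stat3* (0.896), *Pdcd1* like *S100a13* (0.877) and *Lag3* like *Sema4d* (0.856).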

How the data were processed

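Small intestinal lamina propria cells of WT and A20ZF7 mice were profiled by 5′ droplet sequencing with antibody tags. The authors deposited unfiltered UMI counts per barcode and gene, made with Cell Ranger on mm10 (7.1 per the labels; the expression file headers give 8.0.0 and the antibody headers 7.1.0), and antibody counts per barcode; the labels also name R 4.3.3 and Seurat 4.3. No file gave cell classes, so these were rebuilt and may differ from those of the study.

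Barcodes were kept in each library from an order-of-magnitude threshold (a fraction of 0.1 of the 0.99 quantile of the expected cells, searched up to 60000), which came to 675 UMIs in WT and 397 in A20ZF7, with 200 to 2500 genes and at most 15% mitochondrial UMIs. WT barcodes with both hashtags (2322) were removed as doublets; no other doublet call entered the main values, since the A20ZF7 hashtags could not be read. Of the WT barcodes, 7422 carried only the first hashtag (WT mouse 1), 4551 only the second (WT mouse 2) and 13032 neither. Cells were clustered in Seurat 5.3.0 (2000 variable genes without the 8 genes described, cell cycle scores regressed, 30 principal components, resolution 0.8) and named from marker lists.

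UMIs were summed per class and library and given as CPM, with exact Poisson intervals, exact conditional intervals for ratios and exact binomial intervals for shares, all at 95%; there was no test, since each genotype is 1 library. A gene was called raised or lowered at a 2-fold ratio with at least 20 UMIs over both libraries. A count of 0 was read as a bound of 3 counts, and such a gene was called only in the direction of the bound. Antibody counts were compared per 10000 antibody UMIs. A level for free RNA was read in barcodes of 10 to 100 UMIs, and a background level of any source in fibroblast-like cells. In A20ZF7 fibroblast-like cells the free RNA share estimated from *Igha* was 10.87%, and taking it off moved *Ctla4* from 404.4 to 307.4 CPM. What else the fibroblast-like level holds was not tested. Lymphocyte depth was 5659858 UMIs in WT and 20366314 in A20ZF7. The ratio and call were tested on simulated data. Changes were simulated only in genes with at least 20 expected WT UMIs, so calls of a change from fewer WT UMIs were not tested. The rule for counts of 0 was not tested either.

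The genes, pathway lists and tests were chosen with earlier results of these data known, and the UMI threshold, the limits for naming clusters, the rule for counts of 0, the Scrublet limit of 0.15 and the promoter motifs were settled after the counts had been seen. The text names all 8 genes, from each pathway list the 2 highest and 2 lowest ratios with at least 20 UMIs and, in single classes, some of the raised genes, and for each of the 8 genes the most similar of its 5 nearest genes by correlation of log2(CPM + 20), among genes without ribosomal, mitochondrial, receptor segment, immunoglobulin and unnamed gene models. *Cd3d*, *Lat* and *Batf* among the nearest genes, and the myeloid groups, were picked after their values were seen. Gene positions are from GENCODE M21 (GRCm38); upstream sequences are from RefSeq. Alternatives were another depth minimum, gene limit, doublet call, resolution and total, no cell cycle regression, marker gates, thinning, removal of free RNA, each WT mouse alone and, added after seeing the data, the fibroblast-like level taken off, shared barcodes removed and unnamed clusters left out. Python 3.11.15, numpy 2.4.6, scipy 1.17.1, pandas 2.3.3, scanpy 1.11.5 and R 4.3.3 were used.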

Additional observations from a re-analysis of the deposited data

Results flagged for a closer look

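The A20ZF7 to WT ratio of *Cd28* lay on opposite sides of 1 in 2 lymphocyte classes: 1.76 in ILC2-like cells (103 CPM in WT, 182 CPM in A20ZF7) and 0.504 in Th17-like cells (955 and 481 CPM). Both intervals leave out 1 (1.49 to 2.10 and 0.386 to 0.670). Intervals above 1 were also found in ILC3-like (1.608, 1.39 to 1.865) and CD8 T-like cells (1.251, 1.081 to 1.454). Th1 or NKT-like cells had an interval below 1 (0.801, 0.673 to 0.950). The difference between the classes was not tested. Within the clusters that make up the ILC2-like class the ratio was 1.499 (1.12 to 2.05) in cluster 4 and 0.771 (0.207 to 2.02) in cluster 9, and in fibroblast-like cells it was 2.72. With the fibroblast-like level taken off, the ILC2-like ratio was 0.475 and the Th17-like ratio 0.357, both below 1. The Th17-like value rests on 67 WT cells.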

How the results depend on the processing

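The counts of raised genes were recomputed under each alternative. Across all lymphocytes (5 raised) the count was 2 with the fibroblast-like level taken off and 4 with either WT mouse alone. With free RNA removed by a share estimated from the antibody gene *Igha*, the 5 genes stayed past 2-fold. *Ctla4* was then at 355.8 CPM in WT and 826.7 CPM in A20ZF7, and *Tigit* at 66.28 and 142.2 CPM. Under this step 29 of 32 ratios stayed within the reported interval. It left *Ctla4* at 56.13 and 307.4 CPM in fibroblast-like cells, so most of the fibroblast-like level remained. In CD8 T-like cells (4 raised) it was 1 with the fibroblast-like level taken off, and 3 to 5 with 1 WT mouse. In Treg-like cells (2 raised) it was 0 with gates on marker UMIs, 1 with cells thinned to 500 UMIs, and 0 to 3 with 1 WT mouse. In Th17-like cells (1 raised) it was 0 at 1000 or more UMIs per cell and at resolution 1.2, 4 with a limit of 5000 genes and with marker gates, 2 without cell cycle regression, and 0 with either WT mouse alone. Of 414 recomputed ratios, 35 lay on the other side of 1 from the reported value, over 13 of the 32 gene and class pairs, most often *Ctla4* and *Icos* in Th17-like cells (6 alternatives each). Of these, 3 belonged to a value past 2-fold: *Lag3* in Treg-like cells was 0.940 with marker gates, and *Pdcd1* in Treg-like cells was 1.77 with cells thinned and 1.23 without WT replicate 1, against 0.358 without WT replicate 2. The *Ctla4* ratio ran from 1.79 to 2.56 across all lymphocytes and from 1.32 to 3.32 in CD8 T-like cells. Leaving out a WT mouse also leaves out the barcodes without a hashtag. No paired analysis was possible because the mice of a genotype were pooled and the A20ZF7 hashtags were nearly absent from the files (4485 and 6888 UMIs). Depth limits the WT Treg-like and Th17-like values, where *Pdcd1*, *Havcr2* and *Cd274* had at most 8 UMIs each. The cause of the changes was not tested.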
